A study of Mus musculus with 12 samples.

Results

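The genes described here had a higher array signal when Chd4 was knocked down in mouse embryonic stem (ES) cells and a signal near the control level when Mbd3 was knocked down. They were chosen by their measured values: at least 0.8 log2 units above the mean of the 2 EGFP KD arrays on both Chd4 KD arrays, within 0.4 of that mean on both Mbd3 KD arrays, and marked as well above background on both Chd4 KD arrays. Of 19219 named genes measured, 179 (0.931%) met the rule. The Chd4 KD and Mbd3 KD values of these genes are therefore a description, with no test.

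Chd4 is the chromatin-remodelling ATPase of NuRD, a complex that also carries histone deacetylases and holds genes at low activity. Mbd3 is another NuRD subunit, and Mbd2, a protein that binds methylated DNA, takes the place of Mbd3 in a separate form of the complex. Chd4 also acts outside NuRD, for instance with Adnp and HP1 proteins. Dnmt1 copies cytosine methylation onto newly made DNA and Tet1 oxidises it, and many germline genes of the X chromosome are known to be kept silent by promoter methylation.

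The series compared 6 groups of the feeder-free, serum- and LIF-grown E14 line, which is a male ES cell line. Each group was transfected with endoribonuclease-prepared small interfering RNAs (esiRNAs) and collected after 48 hr: Chd4 KD, Mbd3 KD, Mbd2 KD, Tet1 KD, Dnmt1 KD and the control, EGFP KD, whose esiRNA was directed against green fluorescent protein. Each group had 2 samples, each on its own array of an Agilent 4X44K mouse slide. A knockdown of this kind is transient and lowers a transcript without removing it. The array signal of Chd4 differed from the EGFP KD mean by -1.55 and -1.01 log2 units on the 2 Chd4 KD arrays, and that of Mbd3 by -3.07 and -2.85 on the 2 Mbd3 KD arrays. Dnmt1 signal differed by -1.64 and -2.35 on the 2 Dnmt1 KD arrays. It was also at -0.92 on the array labelled Mbd2 KD 1 and -0.68 on that labelled Tet1 KD 2. The brighter Tet1 probe was at -0.60 and -0.89 in Dnmt1 KD and -0.70 and -0.55 in Chd4 KD. The other Tet1 probe was at -0.51 and -0.37, and at -0.16 and 0.04. The array labelled Tet1 KD 1 had Tet1 signal at the control level (-0.02) and a low value on a probe for Mbd2 (-1.75), whereas the array labelled Mbd2 KD 1 had low Tet1 signal (-1.79) and an Mbd2 value of -0.24 on that probe. These 2 arrays go against their labels, so most counts and medians that rest on them are given with and without them. Counts of genes lower on both arrays, medians within a slide and values of single genes are mostly given with them only. The array labelled Mbd2 KD 2 was at -1.77 on that Mbd2 probe. The brighter Mbd2 probe, which stands for the gene here, differed by -0.08 and -0.07 on the 2 Mbd2 KD arrays. On the 2 Tet1 KD arrays it differed by -0.20 and -0.61. The brighter probe thus showed little loss of Mbd2 signal on the arrays labelled Mbd2 KD, and the 2 probes disagree. Values below are log2 of the background-subtracted signal divided by the array's 75th percentile, so that 0 is the level of that percentile and -4.86 is the floor at which dim probes were set. All 14 ES cell markers were detected in EGFP KD, with a summed signal of 225 to 247 times the 75th percentile there and 206 to 230 in Chd4 KD. The brightest probes weigh most in this sum, and Zfp42 and Esrrb had nearly equal signals on each EGFP KD array (4.56, then 4.92). Between 1036 and 1305 probes an array were saturated, and whether these markers were among them was not tested. Nanog was near the floor in EGFP KD (-4.58 and -4.10) and well above background on only 1 Chd4 KD array. The study's methods call the 2 samples of a group biological replicates. Fewer cells of a type and less RNA per cell cannot be told apart in such bulk samples.

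An X-linked germline gene, Ctag2l2, had the largest Chd4 KD difference among the chosen genes, so the bases upstream of 5 genes of this kind are shown, with those of the chemokine gene Cxcl10 as a chosen gene outside the X chromosome. Each line holds 250 bases ending before the annotated start in RefSeq, build GRCm38.p6, 5′ to 3′ on the gene's strand. Capitals mark the CCAAT box on either strand (it reads ATTGG on the minus strand), the TATA box TATAAA, the E-box CACGTG and the AP-1 motif TGAGTCA.
Fthl17e, chrX:9033236-9033485, + strand: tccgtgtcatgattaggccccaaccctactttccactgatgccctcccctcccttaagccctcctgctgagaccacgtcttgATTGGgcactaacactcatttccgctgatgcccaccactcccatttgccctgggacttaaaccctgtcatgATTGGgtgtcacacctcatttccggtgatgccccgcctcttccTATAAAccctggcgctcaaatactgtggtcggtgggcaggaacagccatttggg
Ctag2l2, chrX:74740677-74740926, + strand: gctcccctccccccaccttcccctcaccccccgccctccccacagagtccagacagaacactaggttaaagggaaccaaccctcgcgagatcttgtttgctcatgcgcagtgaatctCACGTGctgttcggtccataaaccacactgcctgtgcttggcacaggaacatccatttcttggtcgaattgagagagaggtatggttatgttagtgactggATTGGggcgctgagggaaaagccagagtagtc
Xlr3b, chrX:73191929-73192178, + strand: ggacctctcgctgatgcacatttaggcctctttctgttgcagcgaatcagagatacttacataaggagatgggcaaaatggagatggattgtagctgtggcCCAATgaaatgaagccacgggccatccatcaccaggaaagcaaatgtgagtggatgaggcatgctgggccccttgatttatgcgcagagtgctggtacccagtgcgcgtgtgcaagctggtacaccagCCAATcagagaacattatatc
Xlr4a, chrX:73082508-73082757, - strand: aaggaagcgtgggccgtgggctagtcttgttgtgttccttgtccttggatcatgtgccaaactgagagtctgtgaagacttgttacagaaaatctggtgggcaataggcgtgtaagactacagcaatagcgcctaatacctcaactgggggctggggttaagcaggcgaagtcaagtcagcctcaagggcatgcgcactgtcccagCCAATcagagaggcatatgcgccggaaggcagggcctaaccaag
Rhox4g, chrX:37651328-37651577, - strand: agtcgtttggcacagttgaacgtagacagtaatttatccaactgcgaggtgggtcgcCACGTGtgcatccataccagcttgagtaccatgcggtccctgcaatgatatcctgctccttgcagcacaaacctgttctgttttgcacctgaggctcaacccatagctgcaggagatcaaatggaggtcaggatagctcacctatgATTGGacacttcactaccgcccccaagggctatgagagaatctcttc
Cxcl10, chr5:92348890-92349139, - strand: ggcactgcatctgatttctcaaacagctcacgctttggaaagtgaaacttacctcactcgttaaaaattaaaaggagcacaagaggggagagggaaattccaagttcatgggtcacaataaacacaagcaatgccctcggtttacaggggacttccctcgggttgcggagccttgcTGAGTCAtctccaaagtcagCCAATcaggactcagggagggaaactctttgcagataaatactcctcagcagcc
The upstream region of Fthl17e holds 2 CCAAT boxes, both on the minus strand, and 1 TATA box, that of Xlr3b holds 2 CCAAT boxes, and those of Ctag2l2 and Rhox4g hold 1 CCAAT box on the minus strand and 1 E-box each. Xlr4a has 1 CCAAT, and Cxcl10 has 1 TGAGTCA and 1 CCAAT. A match is a description of the letters and not of a bound site.

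Of the 1190 named genes at least 0.8 above the control on both Chd4 KD arrays, the 179 chosen genes were 15.0%. Another 254 were also at least 0.8 above it on both Mbd3 KD arrays, 330 lay in the Mbd3 KD window on only 1 of the 2 arrays, and 11 were below the window on both. The mean difference in Chd4 KD ran from 0.83 to 3.81 with a median of 1.22. It was at least 2 in 14 genes and under 1 in 41. The 2 Chd4 KD arrays differed by a median of 0.143 over the chosen genes, and by more than 0.5 in 11 of them. In limma, 125 of the 179 (69.8%) passed an adjusted p of 0.05 as higher in Chd4 KD, where 1.97% of all genes tested did so, and 0 passed as higher in Mbd3 KD, where 0.474% of all genes did. Since the rule used both contrasts, nothing is read from these counts. Below, a gene described as higher in Chd4 KD is so by its measured difference, with no test. Where genes of a list are called higher or lower, the calls are those of limma at an adjusted p of 0.05. Such list counts are to be read beside the 1.97% of all genes called higher in Chd4 KD and the 0.474% in Mbd3 KD. At the edge of the rule, Gimap9 (0.802 and 1.01) and Itga7 (0.946 and 0.803) lay just inside, and Fggy (1.43 and 0.797) and Cgrrf1 (0.801 and 0.795) just outside.

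**Figure D1:**
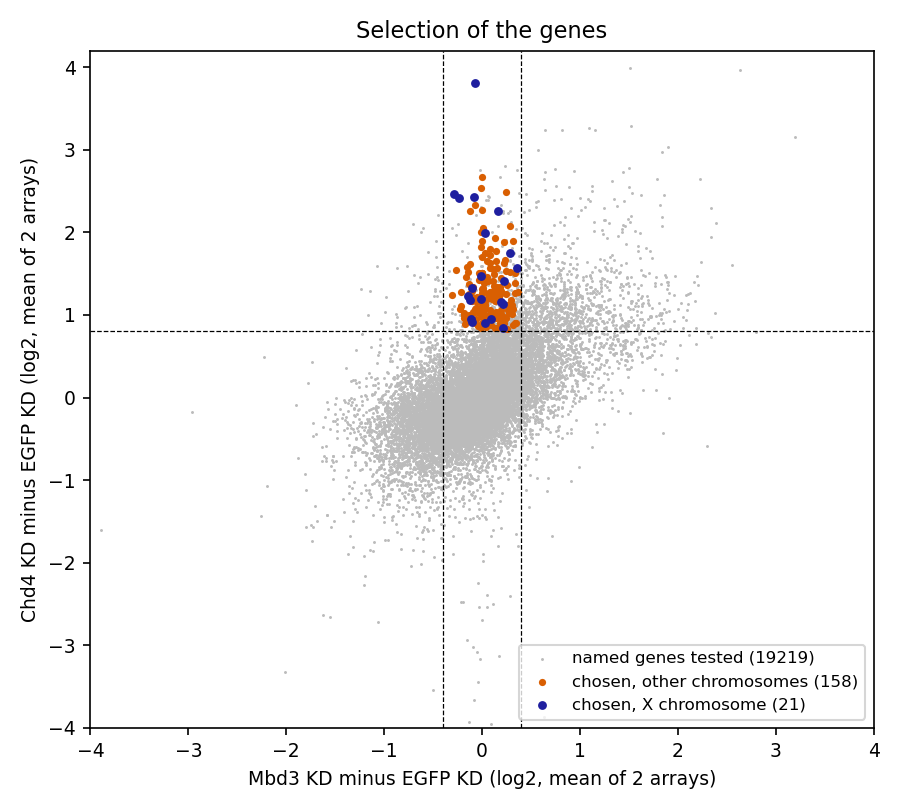
Mean log2 difference from EGFP KD in Mbd3 KD (horizontal axis) and in Chd4 KD (vertical axis), means of 2 arrays each, for the 19219 named genes; dashed lines mark 0.8 and ±0.4, and 8 genes lie outside the axes. The 158 chosen genes of other chromosomes (orange) and the 21 of the X chromosome (blue) fill the upper middle, with Ctag2l2 at the top at 3.81, and grey points in the same area missed the rule on at least 1 array or were not well above background.

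Most chosen genes were dim in control cells. Their median log2 signal in EGFP KD was -2.998, the lowest mean was -4.86 and the highest 2.79, and only 14 genes lay above the 75th percentile. The brightest was Cnr2, a cannabinoid receptor of immune cells, followed by Mpv17, a mitochondrial membrane protein, Crabp2, which binds retinoic acid, and Lefty2, a secreted inhibitor of Nodal. On both EGFP KD arrays 150 chosen genes (83.8%) were well above background, where 90.7% of all named genes were. A further 24 were so on 1 array and 5 on neither. The floor was reached on both control arrays by 20 (11.2%), where 4.83% of all named genes reached it.

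For the 5 genes not well above background in EGFP KD, the difference can be given only as a bound. These bounds hold for the probe read and the scaling used. The bound was at least 6.39-fold for Cfap43, a protein of cilia and sperm flagella, whose second probe differed by -0.10 (log2), and at least 3.26-fold for Adora1, the adenosine A1 receptor. It was at least 2.85-fold for Tnnt2, cardiac troponin T, at least 2.40-fold for the clone 1700012B07Rik and at least 1.97-fold for Pramel30, whose second probe differed by 0. With normexp background correction the log2 difference was 1.21 for Cfap43 and 0.48 for Tnnt2, in place of 2.68 and 1.51. The genes Tph2, 1700012B07Rik and Pramel30 were at the floor on all 10 arrays other than those of Chd4 KD. Both EGFP KD arrays were at the floor in 20 chosen genes, and 1 of them in 27. For these genes the printed Chd4 KD difference is a minimum in this scaling. No chosen gene was saturated on any array.

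**Figure D2:**
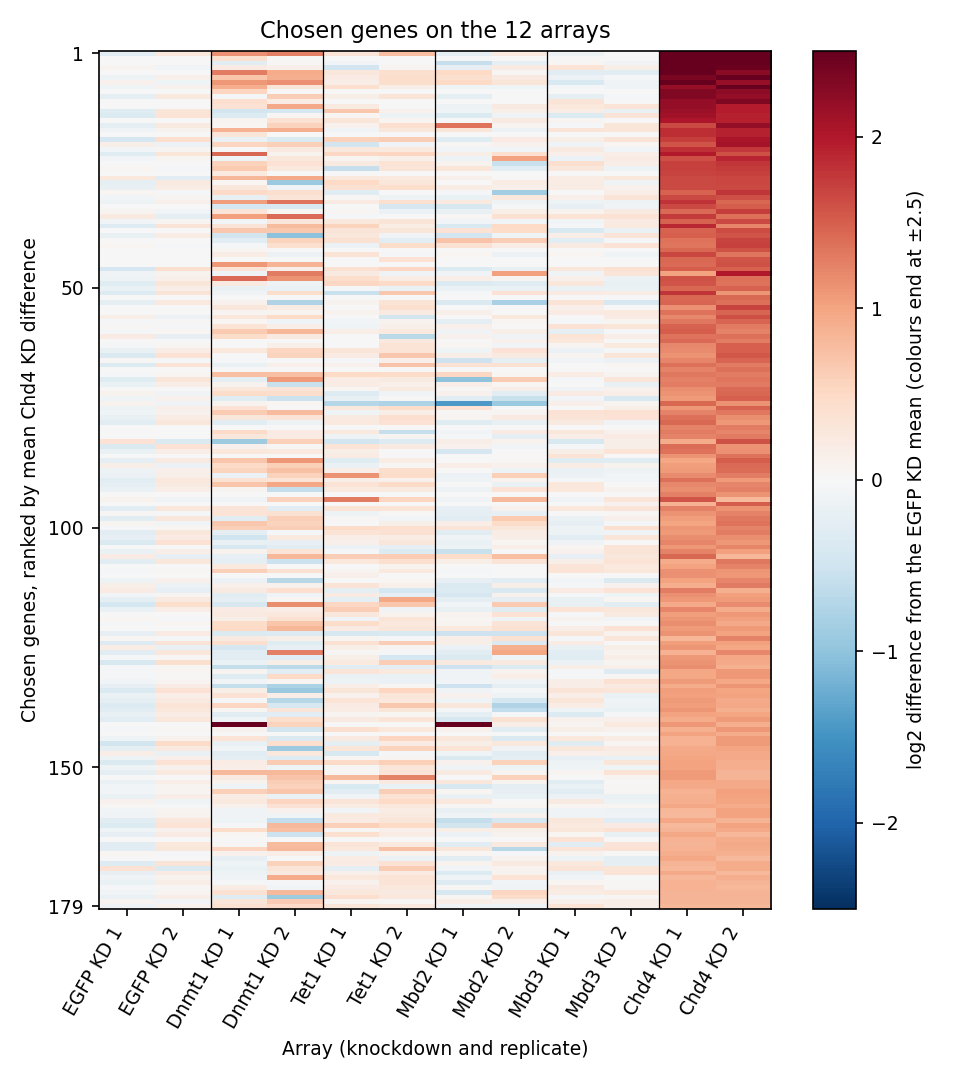
Log2 difference from the EGFP KD mean on each of the 12 arrays (columns) for the 179 chosen genes (rows, ordered by mean Chd4 KD difference); colours end at ±2.5. The 2 Chd4 KD columns are red and the 2 Mbd3 KD columns pale because the rule chose them so, and the medians on the other arrays were 0.0867 and 0.21 for Dnmt1 KD, 0.14 and 0.22 for Tet1 KD, and -0.01 and 0.02 for Mbd2 KD.

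The X chromosome held 21 chosen genes (11.7%), where it holds 3.85% of named genes tested, 6.05% of the 1190 genes above the Chd4 KD threshold and 3.94% of the 254 above it in both knockdowns. These shares describe a set chosen by its values and were not tested. Among the 21, 12 belonged to families known from germ cells or tumours, a grouping made after the values were seen: Ctag2l2 (a cancer-testis antigen), Fthl17d, Fthl17e and Fthl17f (ferritin heavy chain-like proteins of germ cells), Xlr3a, Xlr3b, Xlr4a and Xlr5c (X-linked lymphocyte-regulated proteins related to a synaptonemal complex component), Rhox4g (a reproductive homeobox factor), Mageb4, Luzp4 and Tcp11x2. Their Chd4 KD differences ran from 0.90 to 3.81 with a median of 1.61. Members of such families have nearly identical copies, and probes may take signal from several copies, so single members are uncertain.

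Ctag2l2 had log2 signals of -4.86 and -4.34 in EGFP KD, -0.89 and -0.69 in Chd4 KD, and -4.73 and -4.62 in Mbd3 KD. On the remaining arrays, Dnmt1 KD gave -3.45 and -3.35, Mbd2 KD gave -4.85 and -4.37, and Tet1 KD gave -4.29 and -3.84. The Chd4 KD arrays were thus 14.0-fold above the control, the largest difference among the chosen genes. One control array was at the floor, and with normexp the log2 difference was 2.75 in place of 3.81. Outside Chd4 KD, both Dnmt1 KD arrays lay above every array of the other 4 groups. Its neighbour in the family, Ctag2l1, was higher by 1.95 and 2.15 in Chd4 KD and was not chosen because its second Mbd3 KD array, at -0.53, was outside the window.

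The Fthl17 genes started from a higher level. Fthl17e was at 0.10 and 0.12 in EGFP KD, 2.79 and 2.36 in Chd4 KD, and -0.17 and -0.18 in Mbd3 KD. Dnmt1 KD gave 1.40 and 1.03, Mbd2 KD gave 0.60 and 0.14, and Tet1 KD gave 0.40 and 0.51. Both Dnmt1 KD arrays again stood between Chd4 KD and the rest. Fthl17f went from 1.20 and 1.47 in EGFP KD to 3.68 and 3.84 in Chd4 KD, and stood at 2.03 and 2.24 in Dnmt1 KD. Fthl17d went from 0.09 and -0.10 to 2.64 and 2.17, with 1.07 and 1.14 in Dnmt1 KD. The promoter windows of Fthl17d and Fthl17e, 300 bases each, share an unbroken run of 225 bases, and each shares 83 with Fthl17f. Whether their probes take signal from the same transcripts was not tested. Fthl17a, the remaining member measured, differed by -0.09 and -0.70 in Chd4 KD.

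Among the Xlr genes, Xlr5c went from -3.01 and -2.98 in EGFP KD to -1.29 and -1.20 in Chd4 KD, and Xlr4a from -3.83 and -3.57 to -2.64 and -2.31. Xlr3b went from -1.61 and -1.75 to -0.69 and -0.31. Xlr3a, near the floor in EGFP KD at -4.86 and -4.33, reached -3.74 and -3.65. Of the 7 Xlr genes measured, 4 were chosen. Xlr5b was higher by 3.30 and 3.19, but also by 1.07 on 1 Mbd3 KD array, and Xlr4b was higher by 1.28 and 1.31 with Mbd3 KD values of -0.42 and -0.45, just below the window. The remaining Xlr gene, Xlr5a, differed by 0.22 and -0.65 in Chd4 KD. The rule can therefore separate copies within a family by a small Mbd3 KD difference, as for Xlr4b, while Xlr5a did not reach the Chd4 KD threshold.

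Rhox4g went from -3.97 and -3.73 in EGFP KD to -2.26 and -2.48 in Chd4 KD, and was -2.44 and -2.72 in Dnmt1 KD. The Dnmt1 KD and Chd4 KD values of this gene overlapped, and both lay above the other 8 arrays, all at or below -3.40. The Rhox2 genes Rhox2c, Rhox2e and Rhox2h were higher in Chd4 KD by 2.15 to 2.80 and in Mbd3 KD by 0.38 to 0.79, so 0 of the 3 were chosen. Tcp11x2, a testis gene, was at the floor on both EGFP KD arrays and at -2.67 and -2.53 in Chd4 KD. Luzp4 and Mageb4, from cancer-testis families, were between -4.86 and -4.64 in EGFP KD and reached -3.59 and -3.73, and -3.74 and -3.85, in Chd4 KD. In Dnmt1 KD both were between -4.86 and -4.59, so not every X-linked gene was higher there. Of the 17 Mage genes measured, Mageb4 alone was chosen and alone was called higher in Chd4 KD. The Chd4 KD median of the 17 was 0.

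**Figure D3:**
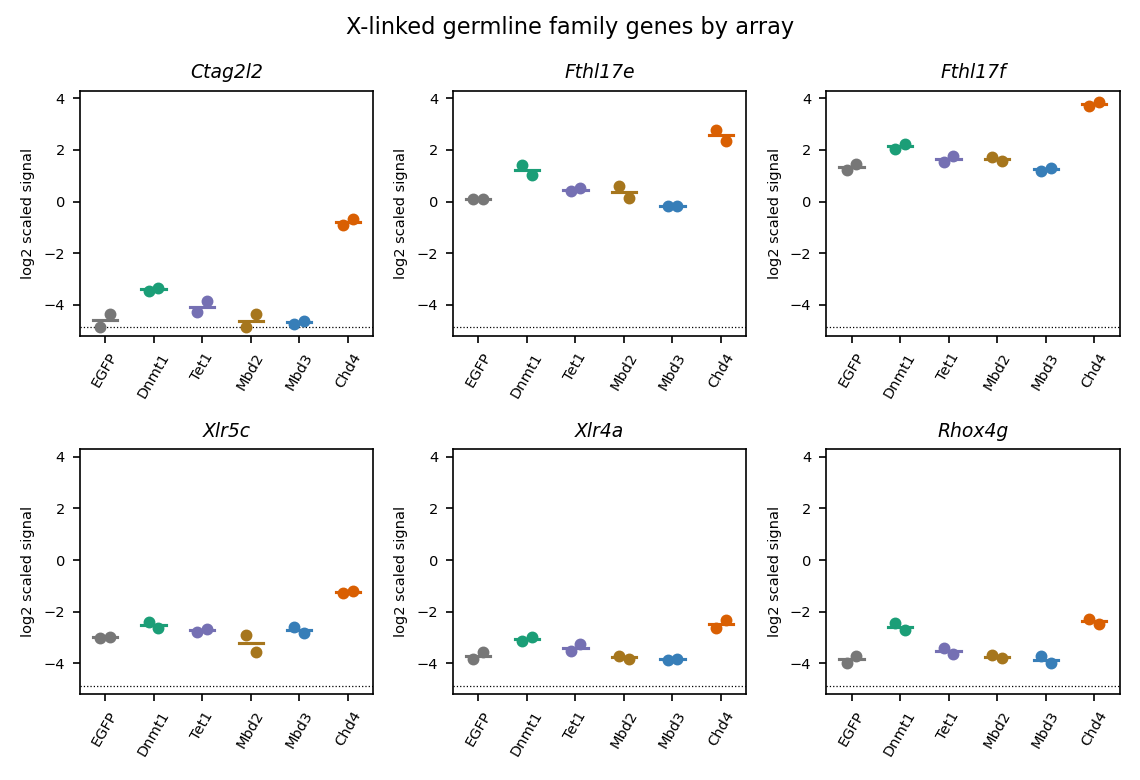
Log2 scaled signal on each array (points; bars are means of 2 arrays; dotted line, the floor at -4.86) for 6 X-linked germline family genes in the 6 knockdowns. Chd4 KD is the highest group in all 6 panels except that its points overlap Dnmt1 KD for Rhox4g, and in all 6 both Dnmt1 KD arrays lie above both EGFP KD arrays.

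The other X-linked chosen genes were 1700013H16Rik, 1700020N15Rik, 3830417A13Rik, Dmrtc1c2, Gata1, Gm10439, Gm15085, Gm9112 and Morc4. The clone 1700013H16Rik resembled Rhox4g: it went from -4.15 and -4.58 in EGFP KD to -2.61 and -2.98 in Chd4 KD and was -3.34 and -2.95 in Dnmt1 KD.

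Germ cell genes outside the X chromosome formed a second group, of 6 genes, again set after the values were seen. Their Chd4 KD differences ran from 1.04 to 1.63. Syce1 and Syce3 encode parts of the central element of the synaptonemal complex, which joins paired chromosomes in meiosis. Syce1 was already bright in EGFP KD at 1.00 and 1.14 and reached 2.72 and 2.68 in Chd4 KD. Syce3 went from -1.16 and -0.77 to 0.21 and 0.54. Gtsf1, a cofactor of the piRNA pathway that represses transposons in germ cells, went from 0.52 and 0.62 to 2.08 and 1.80, and was 1.21 and 1.40 in Dnmt1 KD, above the 8 arrays outside Chd4 KD and Dnmt1 KD. Tex101, a germ cell surface protein, M1ap, a meiosis protein, and Tex19.2 were higher by 1.25, 1.04 and 1.11. Of 18 genes on a list of germline genes, 2 passed limma as higher in Chd4 KD, and the only chosen one was Tex101.

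On the brightest probe of each gene, a set of 7 genes of motile cilia and the sperm flagellum was higher by 0.84 to 2.68 in Chd4 KD. Cfap43 was at the floor on every array but 1 outside Chd4 KD, where it was at -2.07 and -2.30. Fank1, an ankyrin repeat protein of the testis, was at the floor on both EGFP KD arrays, and well above background on 1 of them, and at -3.01 and -2.93 in Chd4 KD. Ccdc172 was higher by 1.65, Ccdc13 by 1.30, Fhad1 by 1.25, Fsip1, a fibrous sheath-interacting protein, by 0.95 and Rsph14, named for the radial spoke, by 0.84. On further probes the Chd4 KD differences were 0 and 0 for Fhad1 and 0 and 0.21 for Ccdc172. They were 0.37 and 0.39 for Fank1 and 0.07 and -0.26 for Cfap43, so none of these probes met the Chd4 KD threshold. Those of Fhad1 and Ccdc172 were well above background on only 4 and 5 arrays. On both Dnmt1 KD arrays, 0 of the 7 exceeded both EGFP KD arrays, where 10.6% of all genes did, so a count of 0 is near the background.

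Muscle and actin cytoskeleton genes numbered 9, with a median Chd4 KD difference of 1.34. Myl9, a regulatory light chain of smooth muscle myosin, went from -0.68 and -0.82 in EGFP KD to 0.67 and 0.98 in Chd4 KD. Flnc, the muscle filamin, went from -0.55 and -0.47 to 0.69 and 0.99. Asb2, the part of a ubiquitin ligase that targets filamins, was higher by 2.01. Cnn1, a calponin that binds actin in smooth muscle, was higher by 1.21, Pdlim4 by 1.53, Mybph by 1.17, Fhl2 by 0.96 and Itga7, a laminin receptor of muscle, by 0.87. In Dnmt1 KD the median of these 9 genes was -0.14. Of 32 genes on a mesoderm and muscle list, 5 were called higher and 1 lower in Chd4 KD, and the chosen ones were Tnnt2 and Cnn1.

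Extracellular matrix genes numbered 9, with a median of 1.01. Col1a1, the main chain of type I collagen, went from -4.29 and -4.41 in EGFP KD to -1.80 and -1.90 in Chd4 KD, a 5.63-fold difference. Outside Chd4 KD its highest value was -4.001, on a Mbd3 KD array. Col2a1, the collagen of cartilage, went from -1.14 and -1.14 to 0.52 and 0.37. The protease Mmp2 and the protease inhibitor Timp3 were higher by 1.28 and 0.94, Adamts7, another protease, by 1.06, and the fibre and matrix genes Mfap4, Ltbp2, Fbn1 and Plod2, a lysyl hydroxylase, by 0.88 to 1.01. Of 25 genes on an extracellular matrix and protease list, 3 were called higher and 2 lower in Chd4 KD. The list had a Chd4 KD median of 0.08, and its chosen genes were Timp3 and Mmp2.

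Col1a1 and Mmp2 are also markers of feeder fibroblasts, and the label says these cells were grown without feeders. Over the 11 markers measured, the summed signal was 5.75 to 6.55 in EGFP KD, 11.04 to 13.90 in Chd4 KD and 10.68 to 10.78 in Mbd3 KD, and 10 of the 11 were well above background on both arrays of each of these groups. Of the 11, 3 were called higher in Chd4 KD (Col1a1, Mmp2 and Thy1, a surface protein also made by other cells). The differences of Col1a2, Col3a1, Dcn and Lum, which define fibroblasts, were -0.02, -0.74, -0.51 and -1.07, and those of Fbln2 and Loxl1 were 2.01 and 0.70 (limma adjusted p = 0.0594 and 0.875). The Chd4 KD arrays disagreed for Col3a1, at -0.25 and -2.45, Dcn, at -0.30 and -1.37, and Lum, at -2.72 and at the floor. Col1a2 encodes the second chain of type I collagen. The part of such cells in the result was not tested.

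**Figure D4:**
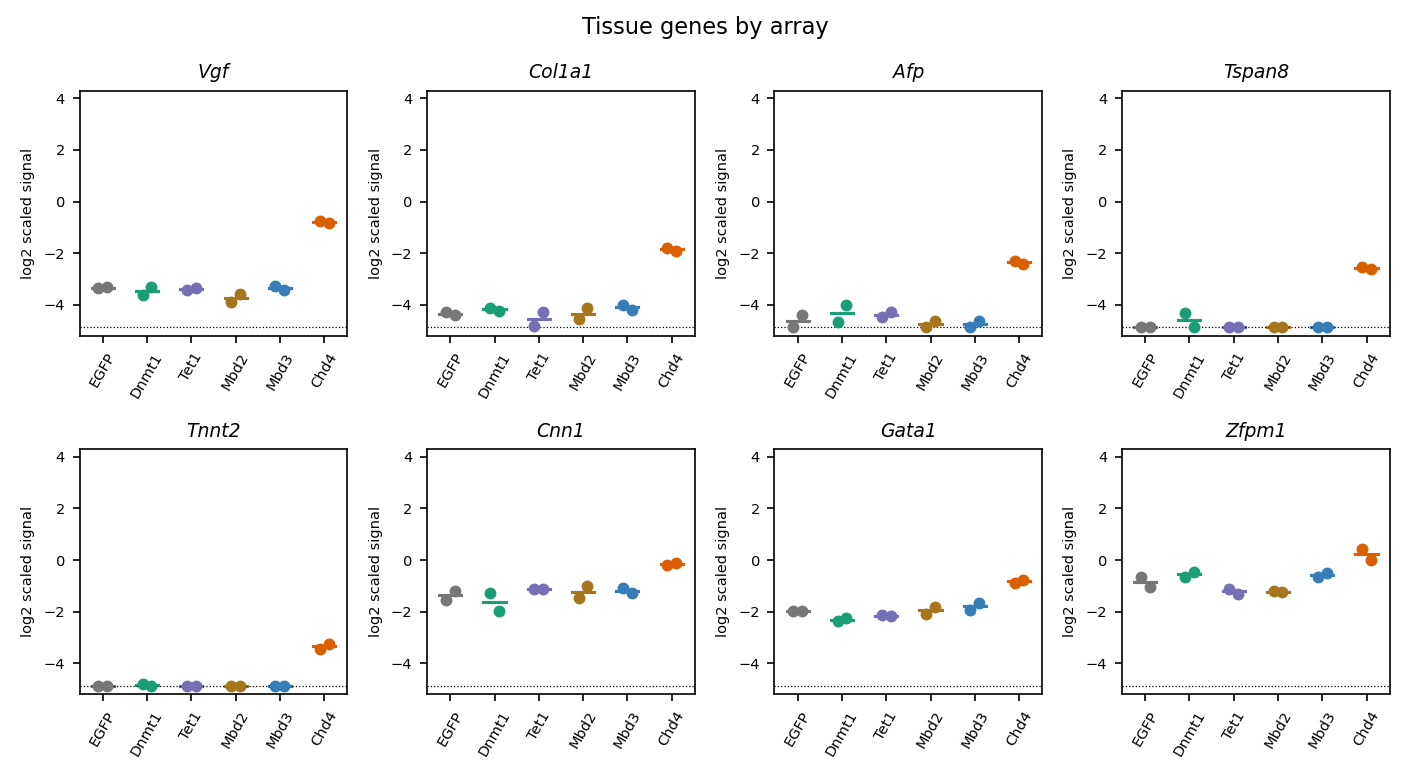
Log2 scaled signal on each array (points; bars are means of 2 arrays; dotted line, the floor at -4.86) for 8 chosen genes of differentiated tissues. In every panel both Chd4 KD arrays lie above the 10 others, for example at -3.43 and -3.26 for Tnnt2, which was at the floor in EGFP KD, and at 0.42 and 0.02 for Zfpm1.

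Blood and immune genes were the largest group, with 14 genes and a median Chd4 KD difference of 1.38. Gata1, the transcription factor of red cell and platelet precursors, went from -1.98 and -1.96 in EGFP KD to -0.88 and -0.76 in Chd4 KD. Its cofactor Zfpm1 (FOG-1) went from -0.66 and -1.06 to 0.42 and 0.02, and a second probe for Zfpm1 was higher by 1.35 and 0.83 in Chd4 KD and by 0.43 and 0.31 in Mbd3 KD, outside the window on 1 array. The 2 partners differed in Dnmt1 KD, where Gata1 was at -2.37 and -2.26, below the control arrays, and Zfpm1 at -0.64 and -0.45, above them. Cnr2 went from 2.83 and 2.74 to 4.26 and 4.57. Il1r2, a decoy receptor for interleukin 1, was higher by 2.06, Cd163l1, a scavenger receptor, by 1.93, Hdc, which makes histamine, by 1.75 and Stat5a, which relays cytokine signals, by 1.39.

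A further 6 genes were of the kind that interferon induces, with Chd4 KD differences of 1.02 to 1.504. Cxcl10 was at the floor on both EGFP KD arrays, well above background on 1 of them, and at -3.43 and -3.43 in Chd4 KD. Irgm1, a GTPase of cell defence, went from -1.65 and -1.82 to -0.29 and -0.62, and a second probe for it was higher by 1.42 and 2.34 in Chd4 KD and by 0.31 and 0.69 in Mbd3 KD, outside the window on 1 array. Irgm1 was also the chosen gene with the lowest mean over the Dnmt1 KD, Tet1 KD and Mbd2 KD arrays, at -2.46 and -2.51 in Tet1 KD and -3.18 and -2.67 in Mbd2 KD. Parp10, Slfn4, Ifi27 and Gbp4 were higher by 1.26, 1.504, 1.06 and 1.02. On a list of interferon-stimulated genes, 3 of 21 were called higher and 1 lower in Chd4 KD, with a median of -0.04.

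Genes of neurons and their signals numbered 7. Vgf, the precursor of several neuropeptides, was at -3.35 and -3.32 in EGFP KD and -0.77 and -0.82 in Chd4 KD, a 5.83-fold difference, and no array of the other 4 knockdowns exceeded -3.28. Asic1, an acid-sensing ion channel, went from -1.36 and -1.14 to -0.01 and 0.07, and was -0.61 and -0.46 in Dnmt1 KD. Tph2, which makes serotonin in neurons, was at the floor outside Chd4 KD, and the receptor genes Htr2b, Grik4 and Crhr2 were higher by 1.03, 0.97 and 1.19. On a list of 30 neural and neuronal genes, 0 were chosen, and 0 were called higher and 2 lower in Chd4 KD.

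Genes of other tissues included Afp, the fetal serum protein of yolk sac and liver, which went from -4.86 and -4.39 in EGFP KD to -2.30 and -2.42 in Chd4 KD. Tspan8, a tetraspanin, was at the floor on both EGFP KD arrays and at -2.55 and -2.63 in Chd4 KD. Pkd2l1, a polycystin-family cation channel, went from -4.86 and -4.66 to -2.59 and -2.27. Both Afp and Pkd2l1 were well above background on 1 of the 2 EGFP KD arrays, so the size of their difference rests on a weak baseline. Podxl, a sialomucin of kidney podocytes and stem cells, was higher by 1.72, Tesc, a calcium-binding protein, by 1.89, and Ret and Vdr, the receptors for GDNF-family ligands and vitamin D, by 1.12 and 1.24. The secreted factors Bmp7 and Lefty2 were higher by 1.30 and 0.95, and the cytokine Il17b by 1.03.

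Members of large gene families can be read against the 0.931% of all named genes that were chosen. Of 344 solute carriers 3 were chosen (Slc36a4, Slc5a2 and Slc1a1), of 849 olfactory receptors 4, of 357 zinc finger genes 1 (Zfp677), of 93 cytochrome P450 genes 2 (Cyp4f37 and Cyp2c55), of 152 ion channels 1 (Kcnu1), of 52 keratins 1 (Krt71), of 39 collagens 2 (Col1a1 and Col2a1) and of 66 cytokine genes 2 (Cxcl10 and Il17b). Counts this small were not tested. Of 14 NuRD subunits 0 were chosen, as were 0 of 7 ChAHP subunits, 0 of 28 p53 targets, 0 of 16 genes of the 2-cell stage, 0 of 22 immediate early and stress genes and 0 of 37 Hox genes. The p53 targets had a Chd4 KD median of 0.55, with 5 called higher, and a Mbd3 KD median of 0.29, with 1 called higher. Of 24 trophectoderm and placental genes, 5 were called higher in Chd4 KD and Tspan8 alone was chosen, and of 21 endoderm genes 3 were called higher and 1 lower and Afp alone was chosen. Of 24 epithelial junction genes 5 were called higher and 0 chosen.

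In the other knockdowns, comparisons with EGFP KD share the control arrays with the rule, and comparisons of Dnmt1 KD, Tet1 KD and Mbd2 KD with each other do not. In limma, 0 of the 179 genes and 0 of 29546 genes (0.0%) passed an adjusted p of 0.05 in any of the 6 comparisons among these groups. At an unadjusted p of 0.05, 34 chosen genes (19.0%) were higher and 8 lower in Dnmt1 KD than in EGFP KD, where 3.31% of all genes were higher and 1.35% lower. In the rest of this paragraph, percentages in brackets are shares of all genes, except 22.3%, which is a share of the 179. In Tet1 KD 8 were higher (1.95% of all genes) and 2 lower (0.897%), and without the array labelled Tet1 KD 1 8 were higher (2.28%) and 4 lower (1.33%). In Mbd2 KD 2 were higher (1.03%) and 7 lower (1.04%), and without the array labelled Mbd2 KD 1 5 were higher (1.83%) and 5 lower (1.76%). Between knockdowns, 40 (22.3%) were higher and 3 lower in Dnmt1 KD than in Mbd2 KD, where 2.41% of all genes were higher and 1.04% lower, and 30 higher (2.52%) and 4 lower (2.92%) without the array labelled Mbd2 KD 1. Against Tet1 KD, 31 were higher (2.86%) and 17 lower (4.4%) in Dnmt1 KD, and 22 higher (2.36%) and 11 lower (2.82%) without the array labelled Tet1 KD 1. In Tet1 KD 18 were higher (3.46%) and 0 lower (1.15%) than in Mbd2 KD, with 15 and 4 (3.08% and 1.32%) without the first of the doubted arrays and 10 and 3 (3.19% and 2.26%) without the second. The smallest adjusted p of a chosen gene was 0.161, for Akr1c12 in Dnmt1 KD against Tet1 KD, so none of these differences passed the correction.

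Counted by arrays, 65 chosen genes (36.3%) were higher on both Dnmt1 KD arrays than on both EGFP KD arrays, where 10.6% of all genes were, and 15 were lower, where 10.4% were. For Tet1 KD 56 were higher (23.3% of all genes), and 103 (42.1% of all genes) without the array labelled Tet1 KD 1. For Mbd2 KD 20 were higher (10.5% of all genes) and 19 lower (12.4%), and 61 were higher (36.5% of all genes) without the array labelled Mbd2 KD 1. The Mbd2 KD counts were thus near the background. With no control array in the comparison, 64 chosen genes (35.8%) were higher on both Dnmt1 KD arrays than on both Mbd2 KD arrays, where 9.66% of all genes were, and 12 were lower, where 9.01% were. Without the array labelled Mbd2 KD 1, 77 were higher, where 22.3% of all genes were. Against Tet1 KD, 51 were higher in Dnmt1 KD (12.2% of all genes) and 39 lower (25.5%), and 58 were higher without the array labelled Tet1 KD 1 (19.8%). In Tet1 KD against Mbd2 KD 62 were higher (28.2% of all genes) and 15 lower (12.8%), and without the 2 doubted arrays 110 were higher (52.3% of all genes).

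The median difference of the 179 genes from the control was 0.17 for Dnmt1, 0.16 for Tet1 and 0 for Mbd2, beside -0.01, 0.09 and -0.00 over all genes tested. Without the array labelled Tet1 KD 1 the Tet1 median was 0.22, beside 0.10 over all genes. Without the array labelled Mbd2 KD 1 the Mbd2 median was 0.02, beside 0. In Dnmt1 KD against Mbd2 KD the median of the 179 genes was 0.15, beside 0 over all genes. On the X chromosome it was 0.42 over the 21 chosen genes, of which 18 were above 0, and 0.14 over the 158 others. Without the array labelled Mbd2 KD 1 these medians were 0.20 and 0.07, beside -0.01 over all genes, and 18 of the 21 were again above 0. A higher level in Dnmt1 KD was not particular to these genes, since the 254 genes above the threshold in both Chd4 KD and Mbd3 KD had a median of 0.21 in the same comparison. Among the 12 X-linked germline family genes, 9 lay higher on both Dnmt1 KD arrays than on both EGFP KD arrays (10.6% of all genes), and 9 than on both Mbd2 KD arrays (9.66%) and also without the array labelled Mbd2 KD 1 (22.3%). This group was picked after its values were seen, and the counts were not tested.

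**Figure D5:**
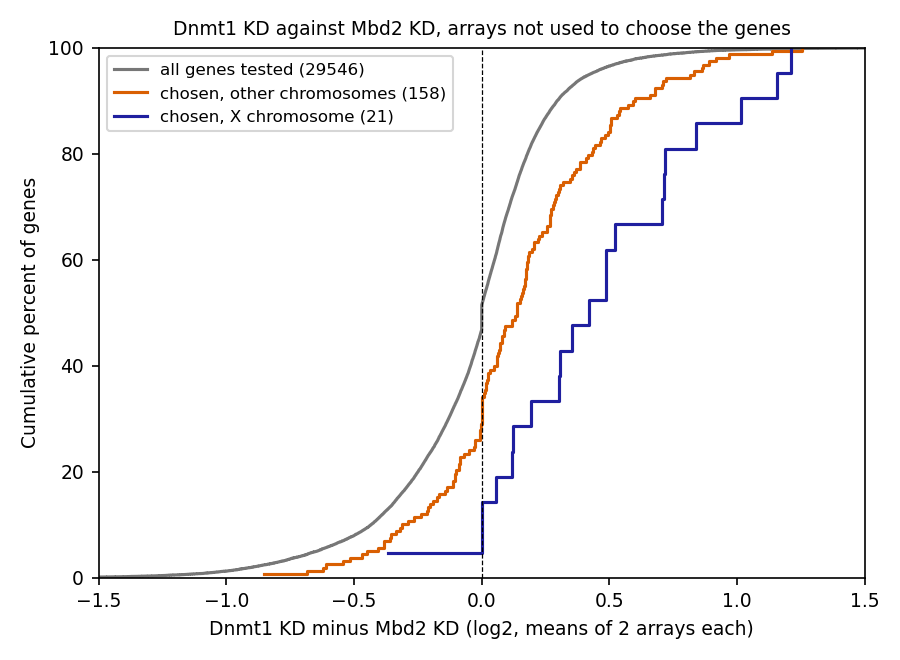
Cumulative percent of genes (vertical axis) by log2 difference between Dnmt1 KD and Mbd2 KD (horizontal axis, means of 2 arrays each; neither group was used by the rule) for all 29546 genes tested (grey), the 158 chosen genes of other chromosomes (orange) and the 21 of the X chromosome (blue). The orange and blue curves lie to the right of the grey, with medians of 0.14 and 0.42 beside 0.

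Single genes differed in size. Akr1c12, an aldo-keto reductase, was at the floor on all 8 arrays outside Dnmt1 KD and Chd4 KD, at -3.77 and -4.01 in Dnmt1 KD and at -3.44 and -3.28 in Chd4 KD. Its difference between Dnmt1 KD and Mbd2 KD was 0.97 with an SE of 0.098 (limma adjusted p = 0.323). Signals set at the floor have no spread, so the SE and the adjusted p values of Akr1c12 are likely too small. Its near copy Akr1c13 was higher by 1.82 and 1.71 in Chd4 KD but was -0.35 and -0.75 in Mbd3 KD. Rhox4g differed by 1.16 between Dnmt1 KD and Mbd2 KD (limma adjusted p = 0.372), and Irgm1 by 1.25 (limma adjusted p = 0.372), with a low Mbd2 KD signal. Without the array labelled Mbd2 KD 1 the 3 differences were 0.97, 1.21 and 1.00, with limma adjusted p of 0.26, 0.455 and 0.365.

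Over the 6 arrays of Dnmt1 KD, Tet1 KD and Mbd2 KD, the chosen genes with the highest mean difference from the control, clones and predicted genes aside, were Vsig8, Fthl17d, Ulk2 and Ctag2l2. Vsig8, a cell surface protein, owed its place to 2 arrays of the same slide, -1.36 on Dnmt1 KD 1 and -0.34 on the array labelled Mbd2 KD 1, and was -4.30 and -4.69 on the other arrays of these groups. Ulk2, a kinase of autophagy, was at the floor on both EGFP KD arrays, at -4.05 and -3.62 in Tet1 KD and at -3.80 and -4.01 in Chd4 KD. The lowest were Irgm1, Ap1s3, Adamts7 and Gbp4. Ap1s3, a subunit of a vesicle adaptor, was -1.28 and -1.22 in EGFP KD, -1.84 and -1.93 in Dnmt1 KD and -0.09 and -0.36 in Chd4 KD.

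The 12 arrays lay on 3 slides, and groups were not spread evenly over them. Within slide 2, the Chd4 KD array exceeded the EGFP KD array in all 179 genes, with a median of 1.12 and 145 genes at 0.8 or more. Within slide 3, which held no control, the other Chd4 KD array exceeded the Mbd3 KD array in all 179, with a median of 1.15, and the Dnmt1 KD array in 176. These values come from the arrays the rule used and are a description. The Dnmt1 KD array of slide 1 exceeded the EGFP KD array there by a median of 0.23, where all genes had 0.03. Dnmt1 KD exceeded Mbd2 KD by 0.15 within slide 1 and 0.14 within slide 3. Within slide 2 the arrays labelled Tet1 KD were 0 and 0.07 from the EGFP KD array, smaller than the 0.16 found across slides, and Dnmt1 KD and Tet1 KD shared no slide.

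Each gene was read from its brightest probe, and 34 chosen genes had further probes, 38 in all. Of these 38, 11 were higher by at least 0.8 on both Chd4 KD arrays, 24 were above the control on both, and 21 had a mean difference under 0.4. Of these 11, 3 also stayed within the Mbd3 KD window on both arrays (Arntl2, Xlr3b and Xlr5c), and 8 were outside it on at least 1, up to 0.90 for Fthl17f. At least 1 further probe met the Chd4 KD threshold for Arntl2, Ccm2l, Dmrtc1c2, Fthl17f, Gm9112, Irgm1, Morc4, Tescl, Xlr3b, Xlr5c and Zfpm1, while another probe of Ccm2l and of Gm9112 did not. Among those not higher by that much were the second probes of Cfap43 (-0.10), Fhad1 (0), Ccdc172 (0.11), Fank1 (0.38), Mpv17 (-0.27) and Megf6 (0.03). Both further probes of Thsd7a (-0.30 and -0.29) also missed the threshold. For the genes of these probes the result rests on 1 of several probes.

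RefSeq promoter windows of 300 bases, from 250 before to 50 after a start, were at hand for 128 of the 179 genes, 148 windows in all. Their median ratio of observed to expected CpG was 0.409, where the 18723 windows of all named genes had 0.623 and those of the genes raised in both knockdowns 0.368. A ratio of at least 0.6 was found in 31.8% of the chosen genes' windows and in 52.0% of all. Read on both strands, CCAAT was in 34.5% of windows (37.7% of all), TATAAA in 14.2% (11.3%), the GC box GGGCGG in 43.9% (50.2%) and CACGTG in 8.11% (8.47%). The cyclic AMP response element TGACGTCA was in 1.35% (2.41%) and TGAGTCA in 8.78% (4.52%). TGAGTCA was in 8.27% of the windows of genes raised in both knockdowns. On the X chromosome, 15 of the 22 windows of chosen genes (68.2%) held CCAAT, where 44.7% of the windows of all named X-linked genes did. Since Fthl17 and Xlr copies share sequence, these windows are not independent, and the shares were not tested.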

How the data were processed

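RNA from 12 samples was measured, 2 for each of 6 knockdowns, labelled with Cy3. The authors deposited Agilent Feature Extraction 10.7.1.1 output, whose background-subtracted processed signal is an intensity on a linear scale. From these intensities log2 values were computed after division by each array's 75th percentile, over 43020 non-control spots, with a floor at -4.86. For each array the lowest signal among probes well above background was taken, and the floor was the highest of these 12 values. Some probes well above background on other arrays were therefore set to the floor. A gene was read from its brightest probe, named through a RefSeq table of mouse genes (71.4% of spots matched). This gave 29546 genes tested, 19219 with a symbol. Between 30310 and 37517 probes an array were well above background, and the number of arrays limits the precision.

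Groups were compared with limma 3.58.1 in R 4.3.3 in a single model of all 12 arrays without a block, with Benjamini-Hochberg adjustment over all genes. The step was checked on simulated data. Alternatives were quantile normalization, normexp (offset 50, with 5 aberrant local backgrounds on 1 array replaced by the array's median), slide and replicate blocks, other thresholds and leaving out each array. Named genes were the 10 with the largest Chd4 KD difference, the extremes in the other knockdowns, chosen genes on the gene lists and those nearest the threshold. Members, lists and tests were chosen with earlier results of these data known, and functional groups, gene families and some further genes named as examples were picked after their values were seen.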

Additional observations from a re-analysis of the deposited data

How the results depend on the processing

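The number of genes meeting the rule was 104 with normexp background correction, 65 of them among the 179, 283 with a Chd4 KD threshold of 0.6 and 110 with 1.0. Leaving out 1 array gave 139 to 438, the highest without Mbd3 KD replicate 2, while quantile normalization gave 132, 118 of them shared. Under normexp 176 of the 179 were still above the control on both Chd4 KD arrays, 93 by at least 0.8, with a median of 0.943. All 148 alternative values of 37 named genes kept their direction, and 13 of the normexp values, 5 within slide 2 and 1 with slide as a block fell below 0.67 of the original. The lowest was 0.09 of the original, for Ulk2 under normexp. With slide as a block Vsig8 was at 2.02 in place of 0.99.

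The median in Dnmt1 KD against EGFP KD was 0.0728 to 0.23 without 1 array, lowest without EGFP KD replicate 1. In Tet1 KD it was 0 with quantile normalization, 0.0375 with normexp, 0.0979 with slide as a block and 0.0523 to 0.25 without 1 array, and in Mbd2 KD it was -0.0539 to 0.0568 without 1 array, negative without EGFP KD replicate 1. The cause was not tested.

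Calls of chosen genes stayed at 0 in 45 of 48 alternatives. With normexp limma called 3 in Dnmt1 KD against EGFP KD: Ctag2l2 (adjusted p = 0.0356), 1700013H16Rik (0.0455) and Cgref1 (0.0302), of 9 among all genes. Dnmt1 KD against Mbd2 KD had 0 to 1 without 1 array, Irgm1 (adjusted p = 0.0446) without Mbd2 KD replicate 2, of 48 among all genes, and Akr1c12 (adjusted p = 0.0458) without Dnmt1 KD replicate 2, of 15. At an unadjusted p under 0.05 the counts in either direction, against EGFP KD, were 42 for Dnmt1, 10 for Tet1 and 9 for Mbd2. Between knockdowns they were 48 in Dnmt1 KD against Tet1 KD, 43 against Mbd2 KD, and 18 in Tet1 KD against Mbd2 KD. With a replicate block 0 were called in all 6 comparisons. No label says that a number pairs samples. Deviations of samples with the same number correlated at -0.04 to 0.77 over 15 pairs of groups, over 0.1 in 10, and were highest (0.64 to 0.77) among Dnmt1 KD, Mbd3 KD and Mbd2 KD, whose samples of the same number also share a slide.

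Chosen after seeing the data, quantile normalization gave 80 genes higher in Dnmt1 KD than in Tet1 KD (19.0% of all genes) in place of 51 (12.2%), and leaving out the doubted arrays gave 110 higher in Tet1 KD than in Mbd2 KD in place of 62, 103 higher in Tet1 KD than in EGFP KD in place of 56, and 61 higher in Mbd2 KD than in EGFP KD in place of 20. With 1 array in place of 2, more genes do not overlap. Signal over background limits the dimmest genes: 20 of the 179 were at the floor on both control arrays, and values there have no order.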
